A study of Xenopus tropicalis with 12 samples.

Results

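The genes described here are 9 that carry, take up, activate, inactivate or hold thyroid hormone before it meets its nuclear receptors (TRs): the deiodinases dio1, dio2 and dio3, the transporter genes slc16a10, slc7a5, slc7a8 and slc3a2, the cytosolic hormone-binding protein gene crym and the serum carrier gene ttr. They were taken by exact symbol from 12 lists of TR ChIP-Seq peaks of Xenopus tropicalis tadpole intestine. These lists name 19768 genes, and all 9 are among them. For each gene, every peak in its extent (lowest to highest position of its annotated features) and in the 5 kb on either side was collected, and peaks that shared at least 1 bp were joined into a region.

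The dio2 product removes an outer-ring iodine and turns the prohormone T4 into the active hormone T3. The dio3 product removes an inner-ring iodine and inactivates T4 and T3, and the dio1 product can do both. Because a hormone-bound receptor acts on genes while deiodinases and transporters set how much hormone the cell holds, these genes can feed back on the signal, and dio2 and dio3 are known for setting the timing of tissue responses in amphibian metamorphosis.

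Intestines came from tadpoles at stage 54, before metamorphosis, of 4 conditions: TRα-/- with T3, TRα-/- control, wild-type with T3 and wild-type control. T3 groups were kept in 10 nM T3 for 18 h, controls received no T3, and tadpoles of both genotypes had the same parents. The antibody recognizes both TRα and TRβ, so in TRα-/- intestine only TRβ can be precipitated. Each condition was 1 ChIP DNA sample merged from several tadpoles and sequenced as 3 technical replicates, so that the spread between libraries shows the error of library making and sequencing and not that between animals or ChIP samples. Peaks were called in each library by itself, with no input or IgG library. Without read totals in the lists, the depth behind each value is unknown. The lists also hold no expression, so neither the tissue nor the expression of these genes could be checked. The genotype could not be checked either, since thra, the gene of TRα, is not named in the lists. The number of peaks per library was between 17414 and 30916 in TRα-/- T3, between 38961 and 44196 in TRα-/- control, between 34933 and 44567 in wild-type T3 and between 34644 and 63333 in wild-type control libraries. Thus each TRα-/- T3 library had fewer peaks than each library of the other conditions, and this stands beside every comparison with TRα-/- T3 below.

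None of the 9 genes was TR-bound in any condition, where a gene is called TR-bound if a region with a peak of all 3 libraries of the condition lies in its extent or within 5 kb. By the same rule, 11.5% of all genes were bound in TRα-/- T3, 13.5% in TRα-/- control, 21.2% in wild-type T3 and 16% in wild-type control intestine. At those shares, a list of 9 genes would hold 1.03, 1.22, 1.91 and 1.44 bound genes in these 4 conditions. By this rule, a count of 0 thus lies within 2 genes of the background and sets the list apart in no condition. Shares by other rules are given in the last section. Single libraries did have peaks at these genes. There were 58 of them over the 12 libraries, 43 in the genes, 12 upstream and 3 downstream, and 8 overlapped a listed exon. Of the 58 peaks, 55 overlapped no peak of any other library. The other 3 overlapped one another, upstream of slc3a2. The share of all peaks that overlap no peak of another library was not computed. These counts therefore have no background here and are not read as a trait of the 9 genes. Per library, 0 to 5 of the 9 genes had a peak, against 31.0 to 72.1% of all genes. Wild-type T3 replicate 2 had a peak at none of the 9 genes and at 55.1% of all genes. This share was higher at the 9 genes only in TRα-/- T3 replicate 3 (55.6%, against 47.6%) and wild-type T3 replicate 1 (55.6%, against 50.9%). By gene, the median was 5 libraries with a peak, against 6 over all genes (quartiles 3 and 10).

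The peaks at these genes were weak within their libraries. Pileup, the number of fragments stacked at a peak's summit, was between 2 and 9, with a median of 4, against a median of 5 over all 462997 peaks. Fold enrichment over the local background had a median of 3.50 and reached 6.11, against a median of 3.97 over all peaks. A −log10 q of at least 5 was met by 4 of the 58 peaks, compared with 24.7% of all peaks. Because pileup is not scaled to depth, each peak was also placed within its own library as the percent of that library's peaks with a lower pileup. The highest value was 74.5%, at ttr in a wild-type T3 library, where the peak held rank 7321.

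**Figure D1:**
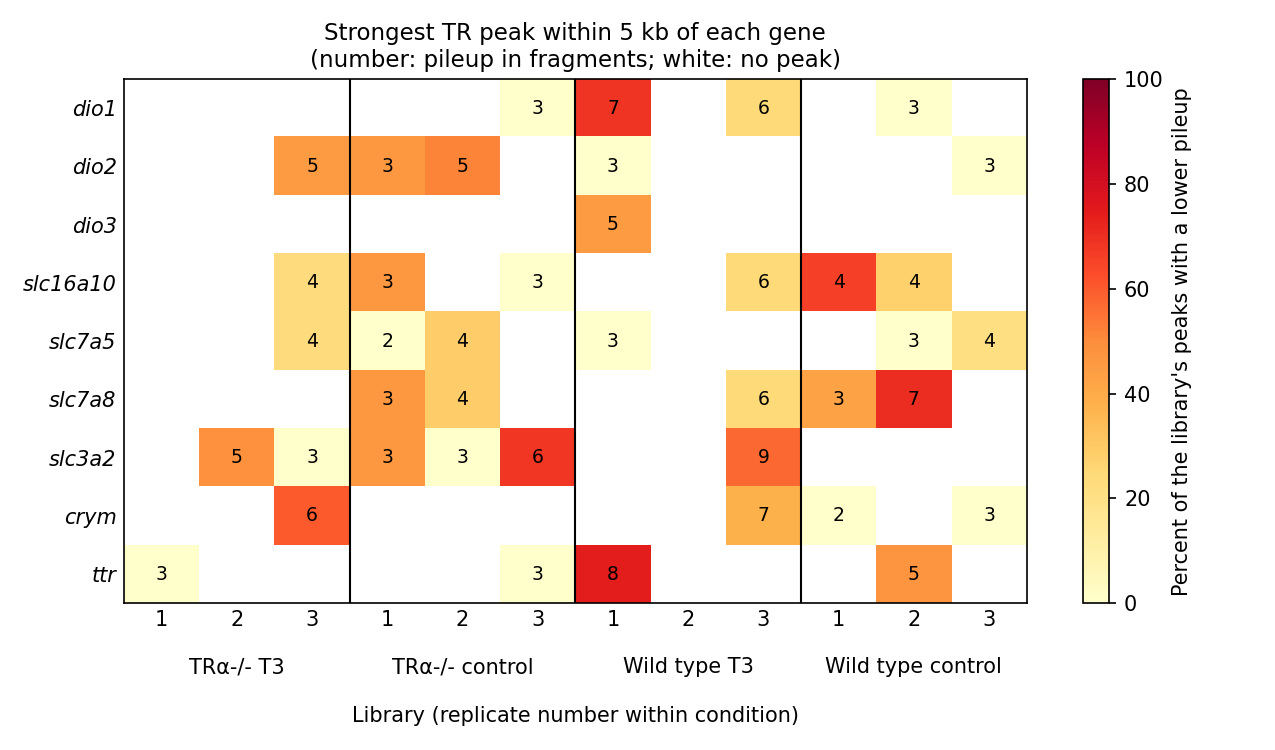
Strongest TR peak in the extent or within 5 kb of each of the 9 genes (rows) in each of the 12 libraries (columns, 3 replicates per condition). Colour gives the percent of the library's peaks with a lower pileup, numbers give the pileup in fragments, and white cells have no peak. Apart from slc3a2 in TRα-/- control, each row has an empty library in each condition. Wild-type T3 replicate 2 has no peak at any of the genes, while 55.1% of all genes have one in that library.

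Among the deiodinases, dio1 (gene ID 100497874, chromosome 4, 87220659 to 87232414, plus strand, on the Xenbase v9.1 assembly) had peaks in 4 libraries. No TRα-/- T3 library had one, and among TRα-/- control libraries only replicate 3 did, with a pileup of 3, the lowest of that list. Of all genes, 31.0, 41.8 and 47.6% had a peak in TRα-/- T3 replicates 1, 2 and 3. In wild-type T3 intestine, replicate 1 had a peak with a pileup of 7 inside the gene and replicate 3 had peaks with pileups of 6 and 5, the first over a listed exon near the 5′ end and the second 1138 bp downstream. In wild-type control intestine replicate 2 alone had a peak, with a pileup of 3, located 1887 bp upstream. The peaks of the wild-type T3 replicates thus lay at different places in and around the gene. The peak of TRα-/- control replicate 3 (87221134 to 87221326) lay next to the exon peak of wild-type T3 replicate 3 (87221335 to 87221563), without overlap. The lists name no full gene feature for dio1, only transcript parts, so its extent may be too short. Of all genes, 69.3% have a full gene feature. The extents of the others may be short too, and shares and densities over all genes rest in part on them.

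The gene of the activating enzyme, dio2 (gene ID 100036737, chromosome 8, 62308841 to 62325871, minus strand), had peaks in 5 libraries. In TRα-/- intestine, T3 replicate 3 had a peak with a pileup of 5, while control replicate 1 had one with a pileup of 3 at 2996 bp upstream and control replicate 2 had 2 inside the gene, with pileups of 5 and 3. In wild-type intestine, T3 replicate 1 and control replicate 3 each had 1 peak with a pileup of 3, the lowest pileup in those lists. None of these 6 peaks overlapped another.

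The gene of the inactivating enzyme, dio3 (gene ID 100038242, chromosome 8, 76368981 to 76370462, plus strand), had the fewest peaks of the 9 genes. A single peak, with a pileup of 5, was found in wild-type T3 replicate 1, located 4823 bp downstream, and no library had a peak in the gene. With an extent of 1482 bp, dio3 also had the shortest window, and only 3.68% of all genes had fewer peaks for their window than its 0.871 per 10 kb over the 12 libraries. Over the 9 genes, the median was 2.22 peaks per 10 kb, against 2.75 over all genes.

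Of the transporter genes, slc16a10 encodes MCT10, which carries aromatic amino acids and thyroid hormone. The gene (gene ID 100488837, chromosome 5, 73991328 to 74048213, minus strand) is the longest of the 9, with an extent of 56886 bp, and 12 peaks fell in its window, in 6 libraries. The strongest pileup was 4 in TRα-/- T3 replicate 3, 3 in TRα-/- control replicates 1 and 3, 6 in wild-type T3 replicate 3 and 4 in wild-type control replicates 1 and 2. At 1.79 peaks per 10 kb, its density was below the median of all genes.

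The light chain genes slc7a5 (LAT1; gene ID 100101781, chromosome 4, 68161214 to 68191808, minus strand) and slc7a8 (LAT2; gene ID 394580, chromosome 1, 127343312 to 127377458, minus strand) encode transporters that carry large neutral amino acids and, in the cell systems where it was tested, thyroid hormone. The 9 peaks of slc7a5 had pileups of 2 to 4 in 6 libraries: 1 TRα-/- T3, 2 TRα-/- control, 1 wild-type T3 and 2 wild-type control libraries. The peak nearest its 5′ end lay 60 bp upstream and was found in TRα-/- T3 replicate 3 alone, with a pileup of 4. At slc7a8, 8 peaks fell in 5 libraries, and none of them was a TRα-/- T3 library. Its highest pileup was 7, in wild-type control replicate 2, at 256 bp upstream, in a peak of 698 bp that was the widest of the 58. No peak of another library overlapped it.

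The heavy chain gene slc3a2 (CD98; gene ID 493209, chromosome 4, 41301726 to 41322032, plus strand), whose product holds both light chains at the cell surface, was the only one of the 9 genes at which peaks of different libraries met. Between 3535 and 3662 bp upstream of the gene, TRα-/- T3 replicate 2 had a peak with a pileup of 5, TRα-/- control replicate 3 one with a pileup of 6 and wild-type T3 replicate 3 one with a pileup of 9. These came from 1 library of each of 3 conditions, and no wild-type control library had a peak in the window.

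All 3 TRα-/- control libraries had a peak at slc3a2 and no wild-type control library did, a pattern found at 0.587% of all genes in this direction. The peaks of the 3 TRα-/- control libraries lay at different places, however, 1 upstream and 2 inside the gene, with pileups of 6, 3 and 3, and did not overlap one another. None of the other 8 genes showed such a complete split in any of the 4 comparisons. Over all genes, the shares split in this way were 0.0961% (TRα-/- T3 libraries with peaks, TRα-/- control without) and 2.87% (the opposite). In wild-type intestine they were 0.314% (T3 with, control without) and 1.18% (the opposite). With T3 they were 0.0911% (TRα-/- with, wild-type without) and 2.13% (the opposite), and without T3 the share was 0.911% for the direction opposite to that of slc3a2. At these shares, fewer than 1 of 9 genes would be split in each direction.

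Of the hormone-binding genes, crym (gene ID 100125176, chromosome 9, 18890502 to 18914314, minus strand) encodes the mu-crystallin that binds T3 in the cytosol. Its 6 peaks came from 4 libraries, with a highest pileup of 6 in TRα-/- T3 replicate 3, none in any TRα-/- control library, 7 in wild-type T3 replicate 3, and 2 and 3 in wild-type control replicates 1 and 3. For crym, too, no full gene feature is listed.

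The gene of transthyretin, ttr (gene ID 100125183, chromosome 6, 96774594 to 96779384, plus strand), had 1 peak in 1 library of each condition. The pileup was 3 in TRα-/- T3 replicate 1, 3 in TRα-/- control replicate 3, 8 in wild-type T3 replicate 1 and 5 in wild-type control replicate 2. The peaks of TRα-/- T3 replicate 1 and wild-type T3 replicate 1 lay next to each other, 3004 and 2841 bp upstream, without overlap, while the other 2 were inside the gene.

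The comparisons of T3 with control and of TRα-/- with wild-type asked whether the place of the strongest peak at a gene within its library differed between conditions. The value used was the percent of the library's peaks with a lower pileup, with 0 for a library without a peak, which is also the value of a peak at the lowest pileup of its library. The largest difference was at slc3a2, with 38.1 ± 34.7% in TRα-/- control and 0 ± 0% in wild-type control libraries (SD, n = 3 each; exact permutation test, two-sided, p = 0.4). At dio2 the same comparison gave 32.7 ± 28.5% in TRα-/- control and 0 ± 0% in wild-type control libraries (SD, n = 3 each; exact p = 0.4). At dio1 the value was 30.8 ± 34.7% in wild-type T3 and 0 ± 0% in wild-type control libraries (SD, n = 3 each; exact p = 0.4). In each of these differences, the SD of the higher group was about as large as the difference, and the groups shared the value 0. At slc3a2, the 0 in TRα-/- control was that of a peak with a pileup of 3 in replicate 2. The 0 values of wild-type control libraries there stood for no peak.

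Over the 9 genes and 4 comparisons, 8 of the 36 exact p-values were 0.4 and 25 were 1. The smallest p that 3 libraries against 3 allow is 0.1, and adjusted over all 19768 genes every p of the 9 genes was 1, so this test could have called no gene in any of the 4 comparisons. No difference between conditions was detectable at these genes with 3 libraries a condition.

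The genes slc16a10, slc7a5 and slc3a2, tied for the most libraries with a peak, were compared with all others by the mean absolute difference of their 12 percents. The genes most like slc16a10 were ube2g2, mrps27 and LOC100489839, at 4.25, 4.29 and 4.90 percentage points. Those most like slc7a5 were cpn1, ap1g2 and wnt16, at 0, 1.79 and 1.79 percentage points. The difference of 0 is not an identical pattern of peaks. Of the 6 libraries with a peak at slc7a5, only 3 also had one at cpn1, since a peak at the lowest pileup and no peak both count as 0. Those most like slc3a2 were mrpl18, tdp1 and syk, at 3.23, 4.02 and 5.66 percentage points. In each of these 12-value patterns at least 6 values are 0, and the others take few steps, since pileups are small whole numbers.

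Farther from the genes, regions that several libraries shared were present at 4 of the 9, against 58.9% of all genes. They were looked for after the values within 5 kb had been seen, as regions with peaks of at least 5 libraries within 50 kb of a gene. With 50 kb on either side in place of 5 kb, 1 of the 9 genes was bound in TRα-/- T3 (slc16a10; 30.8% of all genes), 2 in TRα-/- control (slc16a10 and slc3a2; 35.6%), 2 in wild-type T3 (dio1 and slc16a10; 48.4%) and 3 in wild-type control intestine (dio1, slc16a10 and slc3a2; 40.5%). Each count is below that of the background share of 9 genes, which is 2.77, 3.20, 4.36 and 3.65.

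**Figure D2:**
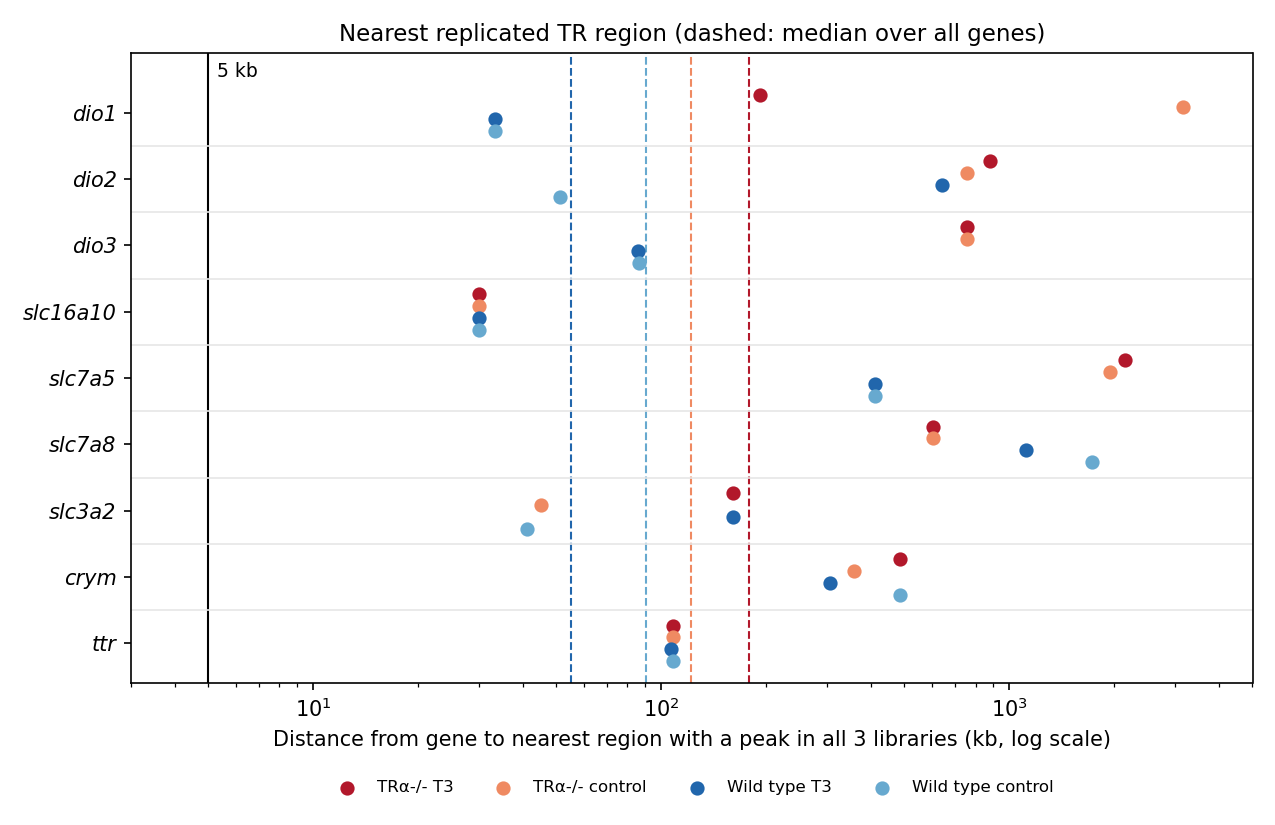
Distance on a log axis (kb) from each of the 9 genes to the nearest region that all 3 libraries of a condition share, with 1 point per condition, and the medians over all 19768 genes as dashed lines in the same colours. All 36 points lie to the right of the 5 kb line. At slc16a10 and ttr the 4 points coincide, at 29.9 kb and between 106753 and 108135 bp, while at dio1 they are spread most widely, up to 3148496 bp in TRα-/- control.

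At slc16a10, 1 region had a peak in all 12 libraries. It lay 29911 bp upstream of the gene (chromosome 5, 74078124 to 74078657) and was nearer to another gene, rpf2, at 8079 bp. Its pileups were 6, 7 and 8 in TRα-/- T3, 15, 12 and 17 in TRα-/- control, 13, 29 and 20 in wild-type T3 and 12, 20 and 19 in wild-type control libraries. As percents of the library's peaks with a lower pileup, these were 66.3, 72.1 and 75.5% in TRα-/- T3, 97.7, 90.2 and 94.9% in TRα-/- control, 88.1, 92.9 and 86.7% in wild-type T3 and 95.4, 94.7 and 92.6% in wild-type control libraries. By this percent the TRα-/- T3 libraries were below all others, but the percent also depends on the length of the list, and their lists were the shortest. By rank in the list, the peak stood at 4454, 5776 and 6311 in TRα-/- T3, 909, 3335 and 1964 in TRα-/- control, 3681, 2771 and 5534 in wild-type T3 and 1392, 2153 and 4336 in wild-type control libraries. By rank the TRα-/- T3 and wild-type T3 libraries overlapped, while the TRα-/- T3 and TRα-/- control libraries did not. Parts of this order by percent are common, while the share of regions with TRα-/- T3 below all other libraries was not computed. Of the 3944 regions with a peak in all 12 libraries, 26.7% had all TRα-/- T3 values below all TRα-/- control values, and 32.3% had all TRα-/- T3 values below all wild-type T3 values. In wild-type intestine, the values with T3 and those of the controls overlapped.

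At dio1, a region 33344 bp upstream (chromosome 4, 87186392 to 87187315) had peaks in 8 libraries, and its nearest named gene was LOC100490175, at 7222 bp. No TRα-/- T3 library had a peak there. The pileups were 2 and 7 in TRα-/- control replicates 1 and 3, 3, 7 and 10 in wild-type T3, and 3, 9 and 17 in wild-type control libraries. Of all regions with a peak in the 3 wild-type T3 libraries, 11.7% had none in any TRα-/- T3 library, and of those with a peak in the 3 wild-type control libraries 8.29% had none. With T3 and without it, the wild-type libraries overlapped in their values at this region, with percents of 0 to 63.4% with T3 and 42.6 to 91.2% in the controls.

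At dio3, a pair of neighbouring regions lay 12465 and 14455 bp downstream (chromosome 8, 76382927 to 76384163 and 76384917 to 76386087), and for both dio3 was the nearest named gene. The first had peaks in 6 libraries, with pileups of 4 and 4 in TRα-/- T3 replicates 2 and 3, 5 in TRα-/- control replicate 2, 8 and 12 in wild-type T3 replicates 2 and 3, and 8 in wild-type control replicate 3. The second had peaks in 5 libraries and in no TRα-/- T3 library, with pileups of 5 in TRα-/- control replicate 2, 7 and 12 in wild-type T3 replicates 1 and 3, and 4 and 8 in wild-type control replicates 2 and 3. No condition had all 3 of its libraries at either region, and so neither counts as replicated. Counted together, 8 libraries had a peak at one or the other: 2 TRα-/- T3, 1 TRα-/- control, all 3 wild-type T3 and 2 wild-type control libraries. This joint count was made after the data were seen. The share of all genes with such a joint count was not computed, so it has no background here.

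**Figure D3:**
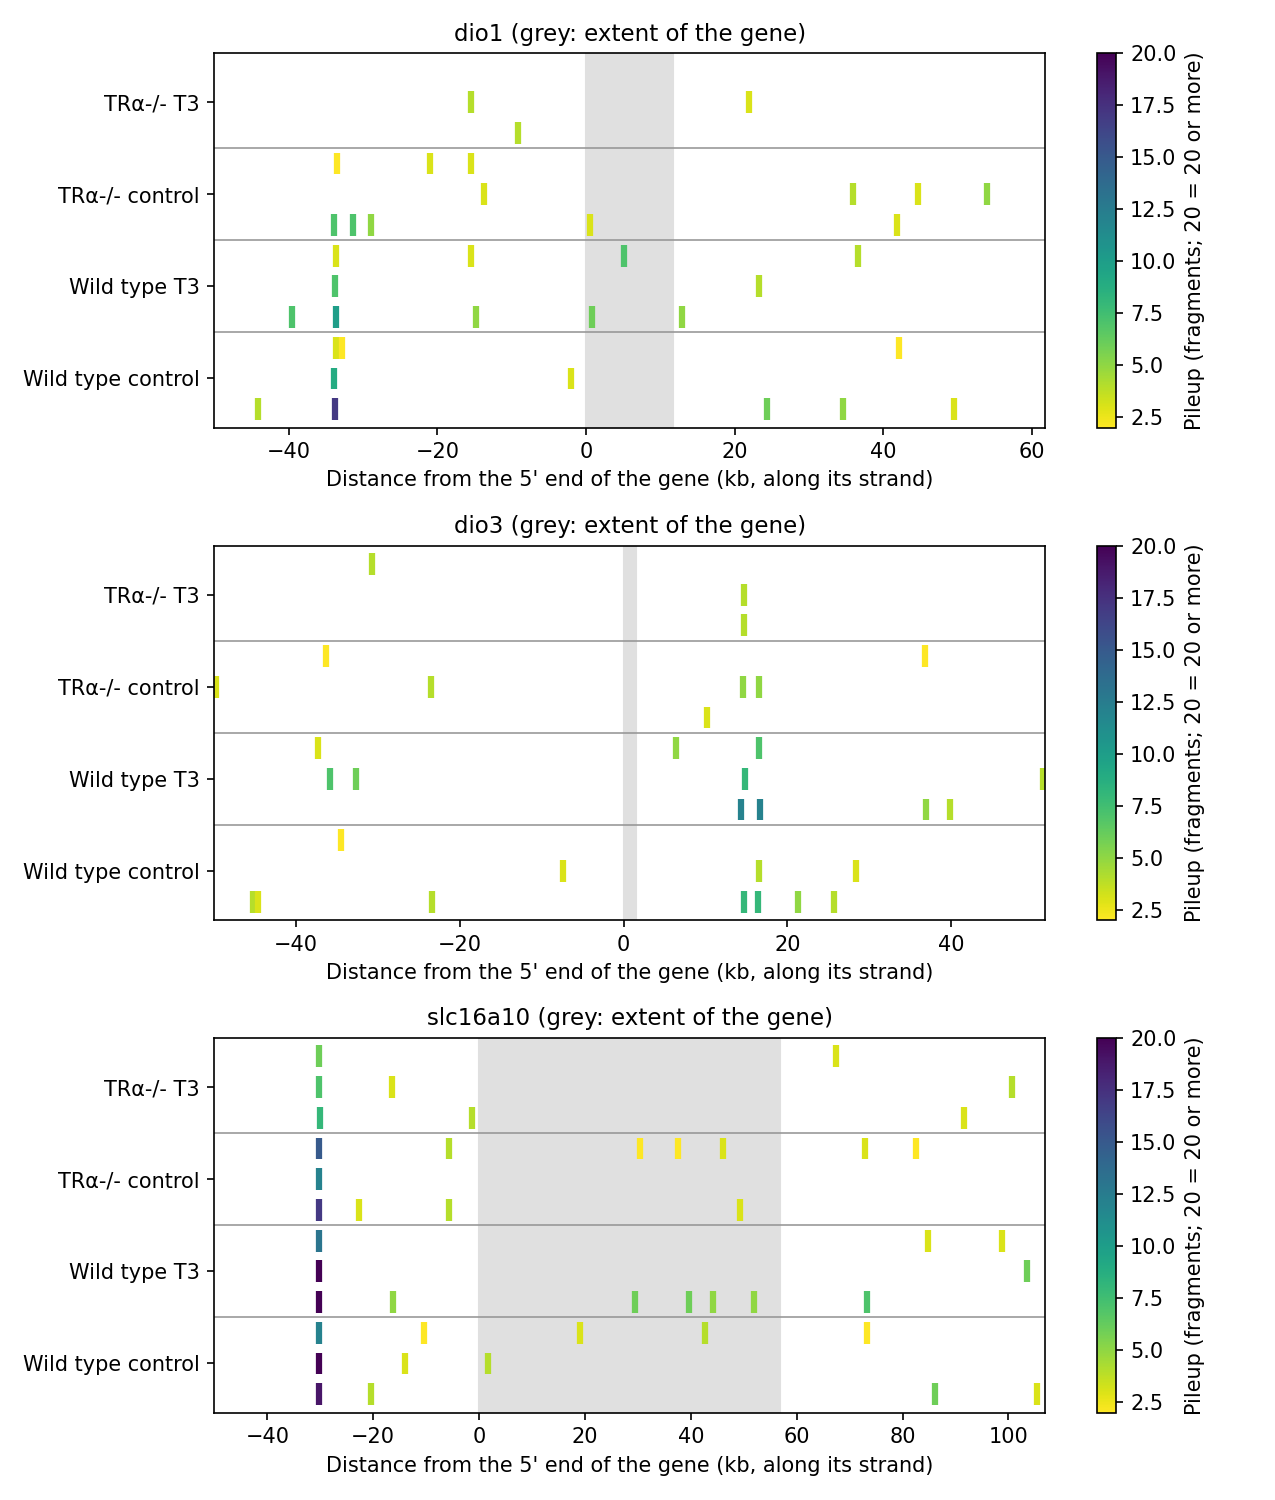
TR peaks of the 12 libraries (rows, 3 per condition) around dio1, dio3 and slc16a10, placed by distance in kb from the 5′ end of the gene along its strand, with colour for the pileup in fragments and grey for the extent of the gene. Columns of marks show regions shared by libraries, upstream of dio1 in 8 libraries, downstream of dio3 in 8 libraries over the pair, and upstream of slc16a10 in all 12. Inside the genes, no peaks of different libraries overlap. Near the 5′ end of dio1, peaks of TRα-/- control replicate 3 and wild-type T3 replicate 3 lie next to each other.

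At slc3a2, the nearest shared regions were inside other genes. A region 44920 bp upstream, in stx5, had peaks in no TRα-/- T3, all 3 TRα-/- control, 2 wild-type T3 and 2 wild-type control libraries. A region 40759 bp downstream, in rps6ka4, had peaks in no TRα-/- T3, all 3 TRα-/- control, 2 wild-type T3 and all 3 wild-type control libraries, but those of the TRα-/- control libraries did not all join without peaks of other conditions. Of all regions with a peak in the 3 TRα-/- control libraries, 4.47% had none in any TRα-/- T3 library. Pileups at the pair were 4 to 9 in TRα-/- control, 9 to 11 in wild-type T3 and 4 to 10 in wild-type control libraries.

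The distance to the nearest region shared by all 3 libraries differed widely between genes and conditions. At dio1, where the upstream region was shared in both wild-type conditions, it was 192489 bp in TRα-/- T3 and 3148496 bp in TRα-/- control intestine, the farthest of the 36 distances. At dio2 it lay 878069 bp away in TRα-/- T3, 756972 bp in TRα-/- control, 639963 bp in wild-type T3 and 51325 bp in wild-type control intestine. At slc7a5 it lay 2152739, 1944036, 411254 and 411205 bp away in the same 4 conditions, and at slc7a8 605336, 604777, 1118017 and 1727793 bp. The median distance over the 9 genes was 486517 bp in TRα-/- T3, 604777 bp in TRα-/- control, 160727 bp in wild-type T3 and 86262 bp in wild-type control intestine, against 178357, 122092, 55221 and 90664 bp over all genes. The number of such regions in the genome was 5989, 7232, 12774 and 8829 in the same conditions. Its part in these distances was not tested.

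To place the 9 genes among their pathway, 33 other genes that handle thyroid hormone were examined, of which 27 are named in the lists. In at least 1 condition, 6 of the 27 were TR-bound: 2 of 4 other thyroid hormone transporters, 1 of 6 relatives of the heavy and light chains, 2 of 8 genes of deiodination and selenoprotein synthesis and 1 of 8 of hormone synthesis. The only named carrier gene of the list, rbp4, the partner of transthyretin, was not bound. The share of all genes bound in at least 1 condition, or in all 4, was not computed. Counts by either rule therefore have no background here. Per condition, 4 were bound in TRα-/- T3 (14.8%), 4 in TRα-/- control (14.8%), 6 in wild-type T3 (22.2%) and 5 in wild-type control intestine (18.5%), shares within 4 percentage points of those of all genes. The 6 bound genes had a median extent of 82500 bp and the 21 others one of 19685 bp, and the part of gene length in these counts was not tested.

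The only one of these transporter genes that was bound in all 4 conditions was slco4a1, of the organic anion transporter family. A region inside it (chromosome 10, 415200 to 415837) had peaks in all 12 libraries, with pileups of 5, 13 and 15 in TRα-/- T3, 3, 18 and 10 in TRα-/- control, 12, 43 and 55 in wild-type T3 and 5, 23 and 39 in wild-type control libraries. The pileups of T3 and control libraries overlapped in both genotypes. The transporter gene slco3a1 was bound in both wild-type conditions. Its region with peaks in all libraries of both also had peaks in 2 TRα-/- control libraries, with pileups of 7 and 4, and in no TRα-/- T3 library. There, wild-type control replicate 3 had a pileup of 3, the lowest of its list. The share of all genes with this pattern was not computed.

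Deiodinases are selenoproteins, and 2 genes of selenocysteine insertion were bound in all 4 conditions. Inside eefsec, which encodes the elongation factor for selenocysteine, a region (chromosome 4, 124532680 to 124534245) had peaks in all 12 libraries, with pileups of 9 to 29 in TRα-/- T3, 12 to 29 in TRα-/- control, 26 to 48 in wild-type T3 and 14 to 40 in wild-type control libraries. At trnau1ap, which encodes a protein associated with the selenocysteine tRNA, the 12-library region lay 4161 bp downstream, inside LOC100488860, so that its assignment rests on the 5 kb rule. A region in trnau1ap itself had peaks in 9 libraries, of which none was a TRα-/- T3 library. No peak in any TRα-/- T3 library was found at 4.47% of all regions with a peak in the 3 TRα-/- control libraries. For regions with a peak in the 3 wild-type T3 or the 3 wild-type control libraries, this share was 11.7 and 8.29%. The last 2 bound genes were slc3a1, a heavy chain relative of slc3a2, in both T3 conditions, and tg, the thyroglobulin gene, in each condition except TRα-/- T3. The region inside slc3a1 also had peaks in 2 libraries of each control condition. At tg, 1 region had peaks in 2 TRα-/- T3 libraries, and another had peaks in none of them and in all libraries of the other conditions. The share of all genes with either pattern was not computed.

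**Figure D4:**
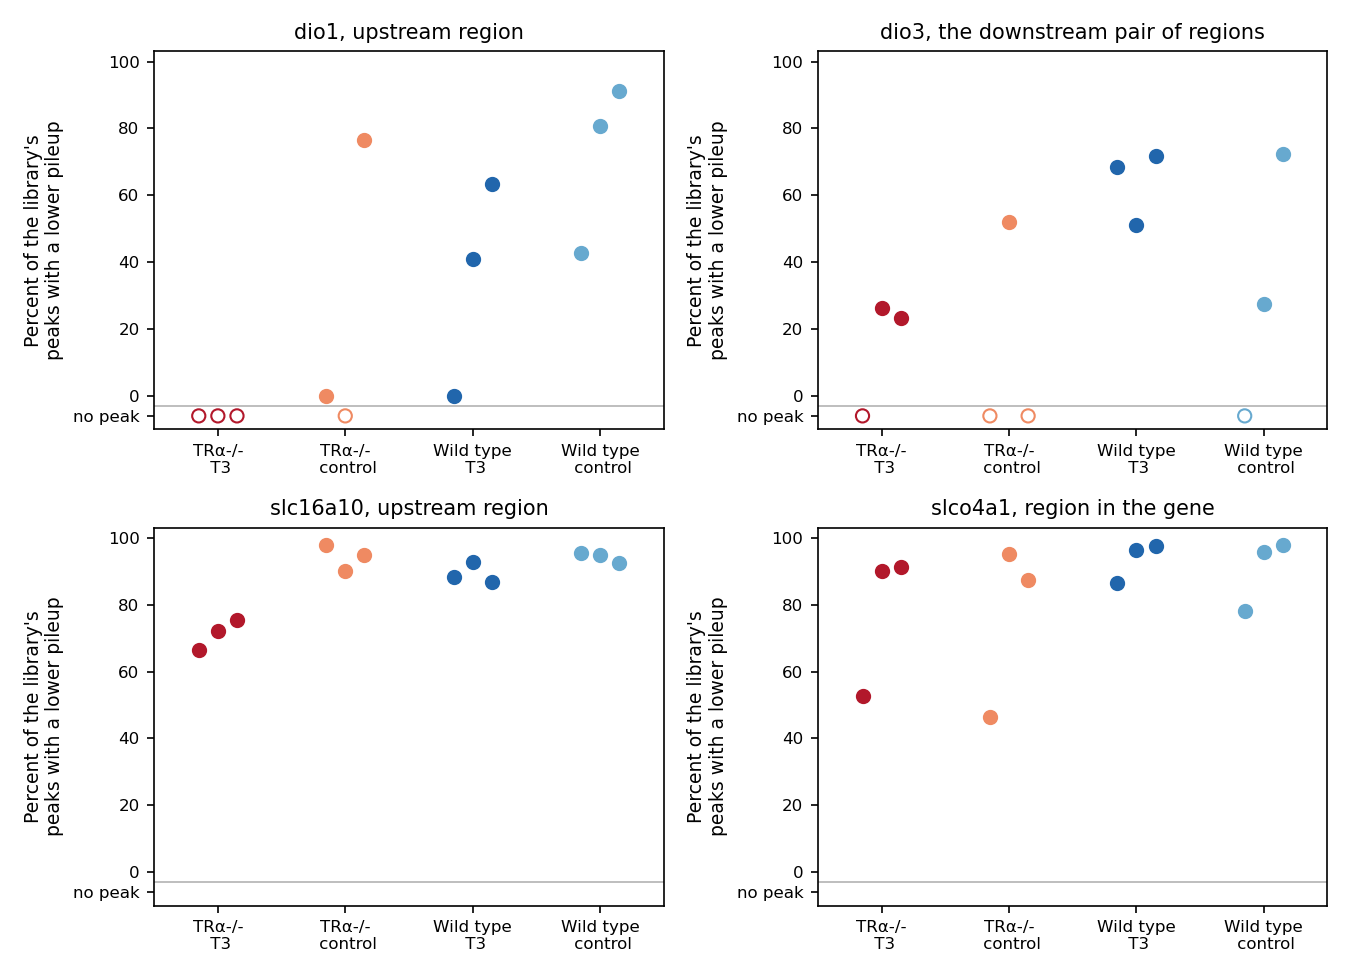
Percent of the library's peaks with a lower pileup (vertical axis) for the strongest peak at 4 regions in each library, by condition: the region upstream of dio1, the pair downstream of dio3, the region upstream of slc16a10 and the region inside slco4a1. Each point is 1 library, and open circles mark libraries without a peak. The dio3 panel joins a pair of regions, neither of which has a peak in all 3 libraries of any condition. At slc16a10 the 3 TRα-/- T3 libraries lie between 66.3 and 75.5%, below all others on this scale, which also depends on list length, and at slco4a1 the conditions overlap.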

How the data were processed

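Paired-end reads were aligned by the authors with Bowtie2 2.3.4.1 to assembly v9.1 of Xenbase. The authors removed redundant reads and called peaks with MACS2 2.1.1.20160309 in each library at a q-value under 0.05. The deposited values of a peak are its pileup signal (fragments at the summit, unscaled), its fold enrichment (a ratio of pileup to local background) and its p-value and q-value as −log10, and the authors attached the annotated features nearest to it. Lines were reduced to 1 per peak. Read totals are not given in the lists, so the precision that depth gives is unknown.

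Groups and replicate numbers came from the sample labels. Named were all 9 genes, those of a list of 33 other thyroid hormone handling genes that were TR-bound in at least 1 condition and rbp4 as the only carrier gene of that list, and the 3 genes nearest in pattern to the members with most libraries (the rule took 2, and 3 tied); stx5, rps6ka4, rpf2 and LOC symbols were named after their values were seen, as neighbours. A gene left out of that list and its counts is not reported here. The members and lists were chosen with earlier results of these data known. Two-sided exact permutation tests compared 3 libraries with 3, with Benjamini-Hochberg adjustment over all genes. The alternatives tried were a threshold of 5 on −log10 q, the 17414 strongest peaks of each library by −log10 p, other flanks, 50% overlap, 2 of 3 replicates, each replicate left out, ranks by −log10 p and the replicate block. The 50 kb flank, the nearest region and the regions of at least 5 libraries were chosen after the data were seen. Python 3.11.15 with numpy 2.4.6 and pandas 2.3.3 was used, and joining and window steps were tested on simulated data. Gene symbols were checked by gene ID against a reference table of another assembly, whose coordinates were not used. No genome sequence was used here, so no motif was searched.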

Additional observations from a re-analysis of the deposited data

How the results depend on the processing

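The count of TR-bound genes among the 9 was 0 in each of the 4 conditions at a −log10 q of at least 5, with the 17414 strongest peaks per library, with gene extents alone, with 10 kb on either side, with an overlap of 50% of both peaks, with a peak in 2 of 3 replicates, and with each replicate left out in turn. Of these settings, those on −log10 q, the strongest peaks, gene extents alone and 50% overlap are stricter than the main rule. With a count of 0 by the main rule, these stricter settings could return only 0 and are no check on it. The share of all genes bound changed over the whole set of settings and was highest with a peak in 2 of 3 replicates. There it was 19.0% in TRα-/- T3, 24.3% in TRα-/- control, 32.5% in wild-type T3 and 29.9% in wild-type control intestine. With these higher shares, a count of 0 lies farther below the background than by the main rule. The distance of within 2 genes was given for the main rule only. The 50 kb flank was chosen after the data were seen. With it, the count was 1 in TRα-/- T3 (30.8% of all genes) and 2 in TRα-/- control (35.6%). It was 2 in wild-type T3 (48.4%) and 3 in wild-type control intestine (40.5%). The smallest exact p over the 36 comparisons was 0.4. It was 0.5 with the replicate block (exact sign-flip test, smallest possible p 0.25), 1 with a −log10 q of at least 5 and with the strongest peaks, 0.4 with extents alone, and 0.1, the smallest possible, with 10 kb, with 50 kb and with ranks by −log10 p. At 10 kb this was slc7a8, with a difference of −51.1 percentage points, TRα-/- T3 minus TRα-/- control, and with ranks by −log10 p it was slc3a2, higher by 46.1 percentage points in TRα-/- control than in wild-type control libraries. At 50 kb several comparisons had this p. Against TRα-/- control, dio1, dio2, slc16a10, slc7a8 and slc3a2 were lower in TRα-/- T3, which had the shortest lists. Against wild-type T3, dio1, dio3, slc16a10 and slc3a2 were lower in TRα-/- T3. Without T3, slc7a5 was higher in TRα-/- than in wild-type libraries. The share of all genes with this p was not computed for 10 kb, 50 kb or ranks by −log10 p. The genes named for these settings therefore have no background here. The correlation of same-numbered libraries' deviations from their condition means over all genes was between −0.0075 and 0.0907. It does not measure a shift of a whole library, and pileup did follow the replicate number. The highest pileup in replicates 1, 2 and 3 was 1521, 2252 and 2516 in TRα-/- T3 and 979, 1761 and 1873 in TRα-/- control. It was 2142, 4130 and 4664 in wild-type T3 and 1066, 2181 and 3141 in wild-type control libraries. The median pileup was lowest in replicate 1 of each condition. The number of libraries with a peak at a gene depended on the threshold. At a −log10 q of at least 5 it was 1 at dio1, slc7a8, slc3a2 and ttr and 0 at the other 5 genes. Under the alternatives other than the replicate block, 29 of 45 counts of libraries with a peak moved by over 1.5 times, and 21 of 47 highest percents and 32 of 324 differences between conditions moved by at least 1 SD between libraries. Pileups of 2 to 9 fragments, unknown depth, 1 ChIP sample per condition and the lack of an input library limit what can be said of peaks found in single libraries.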
